A study of Mus musculus with 2 samples.

Results

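Fibroblasts of the normal mouse pancreas that carry transcripts of Sema3c, Dpp4, Efhd1 and Pcsk6 were examined in a library of single cells. They were chosen cell by cell by a rule. A cell entered with at least 500 genes, at least 1000 unique molecular identifiers (UMIs, the tags that count captured transcripts), with no more than 10% of them mitochondrial. Per 10000 UMIs it needed at least 50 of Col1a1, Col1a2, Col3a1, Dcn and Lum together and under 5 of the mural genes Rgs5 and Myh11. It could hold at most 1 raw UMI of the blood and endothelial genes Ptprc, Pecam1 and Cdh5. Of 5437 normal barcodes, 4616 passed the quality limits and 1496 passed the fibroblast gates. Sema3c, Dpp4, Efhd1 and Pcsk6 together reached at least 5 per 10000 UMIs in 462 of them, the members described here. They made up 30.9% of the normal fibroblasts (28.5 to 33.3%, 95% Clopper-Pearson), 10.0% of the normal cells of sufficient quality, and 462 of the 8379 barcodes of both libraries.

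Both libraries came from mice with the Rosa26-mTmG reporter and the Fabp4-Cre transgene, in which cells that have made Cre, driven by the promoter of the fatty acid binding protein gene Fabp4, and their descendants turn from red to green fluorescence. For the normal library, green cells were sorted from the pancreas at an age of 6 to 9 weeks and labelled as pancreatic stellate cells (PSCs). The tumour library held GFP-positive, PDPN-positive cells from tumours taken 21 days after FC1245 cells, a mouse pancreatic cancer line, were placed in the pancreas of mice aged 8 weeks, labelled as cancer-associated fibroblasts (CAFs). The groups share genotype and reporter. They differ in tumour, PDPN gate, enzymes of digestion and age of the mice when cells were taken, which cannot be told apart. How many mice were pooled is not given in the sources used here. With 1 library per group there is no test of the conditions. Every interval below is a 95% interval of counting error and does not cover differences between mice. Intervals of folds and of CPM come from summed UMIs and also leave out the spread between cells, so they are too narrow.

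Adventitial fibroblasts lie in the outer sheath of vessels and ducts and in the connective tissue that wraps organs. In many mouse organs they share a program with Pi16, Dpp4, Cd34, Ly6c1 and Ly6a and are regarded as a reservoir of less committed fibroblasts, apart from the fibroblasts that sit among the parenchymal cells. Of the genes of the rule, Sema3c encodes a secreted semaphorin that guides axons and vessels, Dpp4 a surface dipeptidyl peptidase (CD26), Efhd1 a mitochondrial calcium-binding protein and Pcsk6 a proprotein convertase that activates growth factor precursors. Position in the tissue was not measured here, so that the name adventitial rests on transcripts alone.

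The promoters of the markers that name these cells are shown because the members were chosen and described by their transcripts. The 250 bases before RefSeq's start of each gene are given 5′ to 3′ on the gene's strand, on GRCm38.p6. RefSeq and GENCODE, from which the gene positions below come, place some starts differently. The windows of Pi16, Sema3c and Pcsk6 lie inside the GENCODE gene, and those of Cd55 and Dpp4 end where it begins. Capitals mark a match to CCCNNGGG, the core bound by early B-cell factors (EBF), or to the TATA box TATAAA. Pi16 and Cd55, which the rule did not use, stand at chr17:29318632-29318881 (plus strand) and chr1:130462745-130462994 (minus strand). Dpp4 stands at chr2:62412232-62412481 (minus strand) and Sema3c at chr5:17574566-17574815 (plus strand).
Pi16: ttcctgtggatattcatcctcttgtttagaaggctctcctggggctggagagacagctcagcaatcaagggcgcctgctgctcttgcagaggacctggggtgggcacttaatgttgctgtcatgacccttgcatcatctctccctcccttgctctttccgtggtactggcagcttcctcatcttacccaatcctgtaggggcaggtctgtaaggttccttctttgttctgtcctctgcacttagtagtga
Cd55: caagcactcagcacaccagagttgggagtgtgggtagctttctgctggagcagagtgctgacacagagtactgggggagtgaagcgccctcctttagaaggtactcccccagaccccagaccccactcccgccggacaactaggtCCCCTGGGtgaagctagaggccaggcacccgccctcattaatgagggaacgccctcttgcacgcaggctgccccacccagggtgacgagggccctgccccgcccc
Dpp4: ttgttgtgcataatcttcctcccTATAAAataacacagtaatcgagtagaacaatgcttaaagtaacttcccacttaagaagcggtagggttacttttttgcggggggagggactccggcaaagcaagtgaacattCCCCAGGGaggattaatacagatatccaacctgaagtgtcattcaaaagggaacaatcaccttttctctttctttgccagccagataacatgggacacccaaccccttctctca
Sema3c: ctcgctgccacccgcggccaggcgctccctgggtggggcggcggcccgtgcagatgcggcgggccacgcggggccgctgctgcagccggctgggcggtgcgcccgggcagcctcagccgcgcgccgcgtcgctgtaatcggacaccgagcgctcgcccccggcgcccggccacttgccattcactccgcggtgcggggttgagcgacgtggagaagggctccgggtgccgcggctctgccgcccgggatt
The windows searched also held bases just after the start, for the markers and for all genes. Every match in the 6 marker windows lay before the start. The EBF element was found in 3 of the 6 marker windows, at 105 bases before the start in Cd55, 114 in Dpp4 and 134 in Pcsk6, and in 13.4% of the 27025 promoter windows of all genes. Of the 15 highest genes by fold in members 10 had a window, and 3 of these held it, as did 4 of the 11 windows of the 15 lowest. TATAAA, searched on both strands, was found in 1 of the 6 windows (Dpp4) and in 14.2% of all. The AP-1 element TGANTCA (7.93% of all windows) and the cAMP response element TGACGTCA (1.88%) were in none of the 6. Ebf1 transcripts were alike in members (972 CPM, that is UMIs per 1000000 UMIs of the summed cells) and in the other normal fibroblasts (966 CPM), and Ebf2 was at 252 and 84.1 CPM. A match is a run of letters and shows no binding.

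The genes of the rule are given first, as a description. Their summed level had a median of 19.3 per 10000 UMIs in members (quartiles 9.41 and 29.9, highest 87.1) and of 0.897 in the other 1034 normal fibroblasts. Of the members, 283 held UMIs of all 4 genes, 118 of 3, 52 of 2 and 9 of 1, and 4 members rested on at most 2 UMIs. In the summed members Pcsk6 stood at 830 CPM, Sema3c at 656, Dpp4 at 494 and Efhd1 at 207, against 79.0, 15.9, 32.2 and 1.18 CPM in the other normal fibroblasts. Each pair of rule genes was also read in cells chosen on the other pair. In 449 cells chosen on Sema3c and Dpp4 alone, Efhd1 was 48.6-fold (35.1 to 69.4) and Pcsk6 7.52-fold (7.0 to 8.07) above the remaining normal fibroblasts. In 507 cells chosen on Efhd1 and Pcsk6 alone, Sema3c was 22.4-fold (19.6 to 25.7) and Dpp4 8.49-fold (7.67 to 9.42) above them. The choices shared 367 cells.

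**Figure D1:**
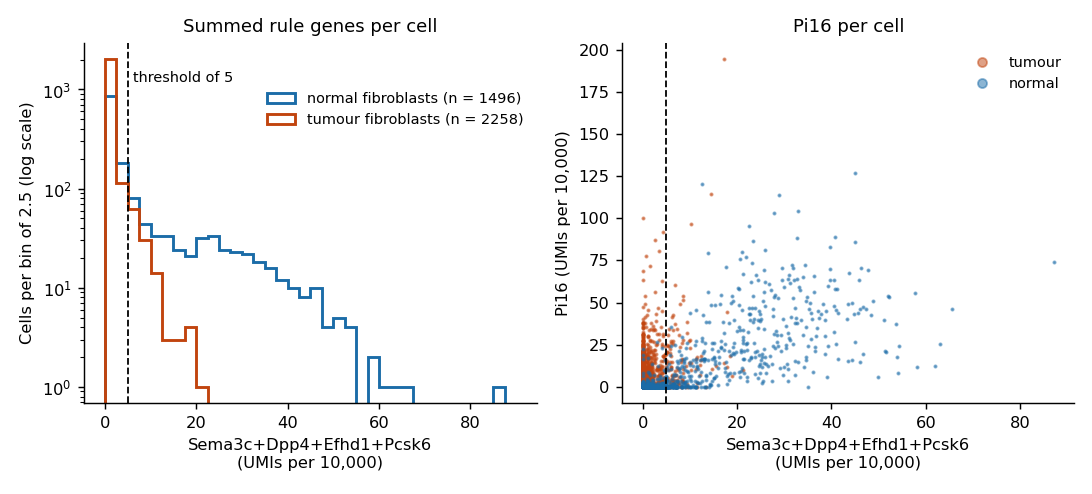
Left, number of fibroblasts (log axis) in bins of the summed rule genes, in UMIs per 10000, for 1496 normal and 2258 tumour fibroblasts, with the threshold of 5 as a dashed line. Right, Pi16 against the same sum in single cells. The normal cells reach 87.1 and the tumour cells 21.2, and many tumour cells with Pi16 lie left of the threshold.

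Pi16 and Cd55 are the label markers that the rule did not use. The members and their label were chosen with earlier results of these data known, so their levels are no independent check of the name. Pi16 (peptidase inhibitor 16, a secreted protein; ENSMUSG00000024011, GRCm38 chr17:29317680-29330593) stood at 2595 CPM in members and 48.8 CPM in the other normal fibroblasts, 53.2-fold higher (48.2 to 58.8). On the log2 scale this difference of 5.73 was 4.69 with a threshold of 10 per 10000 UMIs, which moves members to the other side, 4.93 with the rule applied after thinning, and 6.14 with a threshold of 3. Cd55 (decay-accelerating factor, which protects cells from complement; chr1:130439027-130462744) stood at 843 and 62.1 CPM, 13.6-fold higher (12.4 to 14.9). Members were also deeper, with a median of 12985 UMIs and 3655.5 genes per cell against 7999 UMIs and 2991.5 genes. Shares of cells were therefore read after each cell was thinned to 3000 UMIs, which left out 5 members and 39 other fibroblasts. Pi16 was then found in 79.4% of members and 6.83% of the other fibroblasts (85.9% and 13% before thinning), and Cd55 in 68.9% and 13.3%. In the same library 1.16% of 947 thinned endothelial-gated cells and 1.61% of 1241 macrophage-gated cells held a Pi16 UMI, from median depths before thinning of 4131 and 8148.5 UMIs. These shares in cells that should lack Pi16 lie far below that of the members. Dpp4 (0.106% of endothelial-gated cells) and Pcsk6 (0.845%) were as rare there, while Sema3c was in 8.55%. All 7 fibroblast markers were present, led by Dcn at 12374 CPM in members and 16510 CPM in the other fibroblasts. Dcn and the other gate genes Col1a1, Col1a2, Col3a1 and Lum are among them, so their summed presence was set by the rule in both groups.

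**Figure D2:**
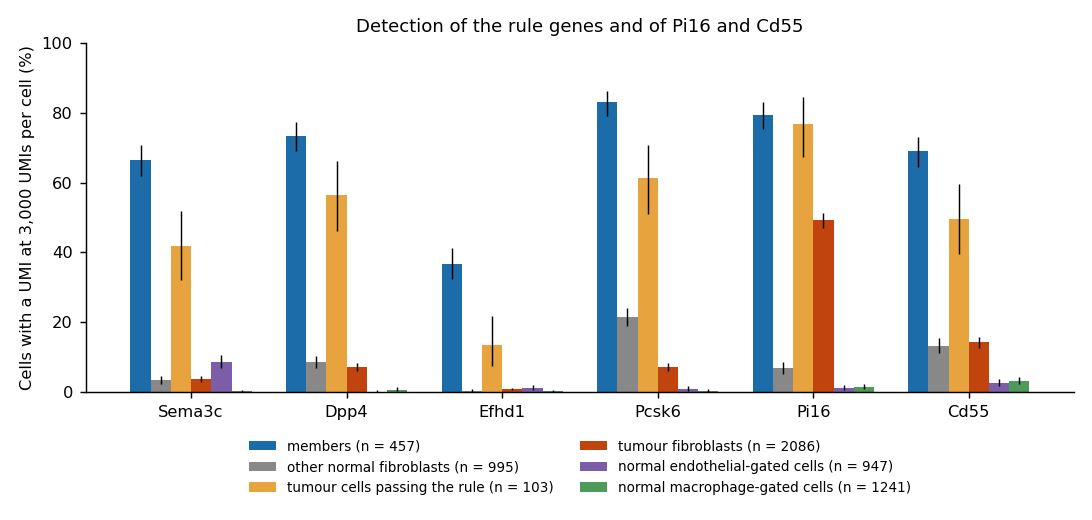
Percent of cells with a UMI of each gene after thinning to 3000 UMIs per cell, for 6 groups, with 95% Clopper-Pearson intervals. Pi16 stands at 79.4% in members, 6.83% in other normal fibroblasts and 49.1% in tumour fibroblasts, whereas each rule gene stays under 8% in tumour fibroblasts.

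Within the normal fibroblasts the other markers followed the summed rule genes in steps. Pi16 stood at 21.9 CPM in the 484 cells without a rule-gene UMI and at 42.2 and 97.8 CPM in the next 2 bins, all outside the threshold. It stood at 575 CPM in the 124 members from 5 to 10 per 10000, at 1897 and 3772 CPM in the next 2 bins and at 4223 CPM in the 47 members of 40 and above. Cd55 ran from 43.9 to 1393 CPM over the same 7 bins, Anxa3 (annexin A3) from 37.1 to 2024 CPM and Nov (CCN3, a matricellular signalling protein) from 2.63 to 1239 CPM. In the opposite direction G0s2, an inhibitor of lipolysis, went from 947 to 50.7 CPM and Cxcl14, a chemokine, from 920 CPM to 0 UMIs. Inmt, a methyltransferase that marks another kind of normal fibroblast, was highest at the border, with 152 CPM from 2 to 5 and 149 CPM from 5 to 10 per 10000, and stood at 70.2 CPM in cells without a rule-gene UMI and 4.91 CPM at the top. The border is thus not a gap in these data. The 30 members just inside the threshold (5.00 to 5.82 per 10000) held Pi16 at 262 CPM and G0s2 at 456 CPM, and the 30 cells just outside (4.44 to 4.97) held them at 278 and 521 CPM.

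**Figure D3:**
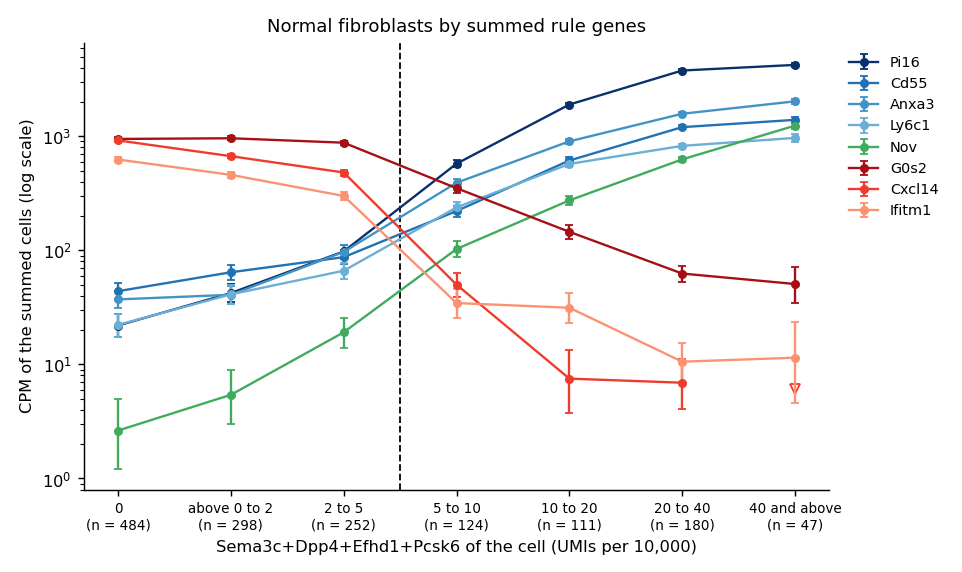
CPM (log axis) of 8 genes in normal fibroblasts summed over 7 bins of the rule genes, with the threshold of 5 per 10000 as a dashed line and 95% counting intervals as bars. The open triangle is the upper limit where a bin held 0 UMIs. Pi16 runs from 21.9 to 4223 CPM and G0s2 from 947 to 50.7 CPM.

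The members were not uniform. After thinning, 363 members held a Pi16 UMI and 94 did not. Cd55 was found in 77.7% of those with and 35.1% of those without, Ly6c1 in 81.0% and 29.8%, and Fn1 (fibronectin) in 97.5% and 67.0%. G0s2 went the other way, at 20.9% and 56.4%. Thus the members without Pi16 also held less of the other adventitial transcripts and more of G0s2. Igfbp5, an insulin-like growth factor binding protein, was at 0 at the lower decile of members, at 2.77 per 10000 UMIs at the median and at 40.2 at the upper decile. Col4a1, a chain of basement membrane collagen, had a median of 6.23 and an upper decile of 42.8. Among 2941 genes considered, the largest variance relative to the mean belonged to Jchain and Slpi, each found in 2.38% of members. Jchain is a plasma cell gene and Slpi, like the mesothelial gene Upk3b in 3.25% of members, is an epithelial and mesothelial transcript. Such cells were few but not absent.

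Markers of other cell types were summed in members and in other normal fibroblasts. The 13 mesothelial markers reached 451 CPM in members and 194 CPM in the others, with all 13 present and Wt1 the largest in members at 125 CPM. In 14 members these markers made up at least 20 per 10000 UMIs, as they did in 3 other fibroblasts. The B and plasma cell total of 186 CPM was nearly all Jchain (184 CPM), and 1 member and 1 other fibroblast exceeded the same limit, the member with Jchain at 731 per 10000 UMIs. Macrophage and monocyte markers were at 382 and 426 CPM, and 7 members and 23 other fibroblasts exceeded it. Acinar markers were at 599 and 1052 CPM, and 11 members and 98 other fibroblasts exceeded it. The pericyte and smooth muscle total was 27.7 and 208 CPM, mature adipocyte markers were at 0.336 and 99.9 CPM, and all 6 T and NK cell markers found in the files were at 0. The adipocyte total of the other fibroblasts was mostly Car3 (88.7 CPM). Only 1.16% of those cells held a UMI of the adipocyte markers, with a highest level of 408 per 10000 UMIs in a cell. Endothelial markers were at 185 and 228 CPM, led by Tek in members. No barcode of a member occurred in the tumour library, and the libraries shared 4 barcodes in all.

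Members were then compared with the other 1034 normal fibroblasts of the same library, to see which genes set them apart beside those that chose them. A gene was counted when its CPM differed at least 2-fold, its counting interval excluded 1 and it reached 50 CPM in either sum. Of 3670 genes at that level, 243 (6.62%) were higher and 296 (8.07%) lower in members. When sums were scaled by their median ratio, which moved all log2 folds by 0.16, these were 312 and 253. Without the 33 members and 116 other fibroblasts that exceeded any of the 4 limits on markers of other types, they were 245 and 294. The cells were chosen in this contrast, so these counts describe the choice and test nothing.

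Several of the 15 highest genes act on Wnt signals. Sfrp2 and Sfrp4, secreted antagonists of Wnt ligands, stood at 175 and 215 CPM in members and 2.73 and 8.18 CPM in the others, 64.2-fold (42.6 to 102) and 26.3-fold (20.6 to 34.0) higher. Dact2, which binds the Wnt transducer Dishevelled, stood at 64.4 and 0.711 CPM. Other genes of this group encode secreted or decoy proteins. Krtdap, a small protein known from keratinocytes, was at 94.3 and 0.829 CPM, 114-fold higher (54.8 to 284). Sbsn (suprabasin) was at 393 and 12.2 CPM, Nov at 478 and 7.94 CPM and Tnfrsf11b (osteoprotegerin, a decoy receptor of the TNF family) at 74.0 and 1.66 CPM. Ackr3, a scavenging receptor for CXCL12, reached 698 CPM in members and 28.9 CPM in the others. Has2, a hyaluronan synthase, stood at 130 and 4.86 CPM. Limch1, an activator of non-muscle myosin, stood at 151 and 2.73 CPM, Cmah, which makes a sialic acid, at 176 and 4.15 CPM, and Car8, a protein related to carbonic anhydrases, at 66.8 and 0.829 CPM. Mustn1 (127 and 3.91 CPM) and Lurap1l (92.6 and 3.55 CPM) complete the 15 with Pi16. Some of these transcripts were also found in other cell types of the library. After thinning, Limch1 was in 32.8% of members and 26.0% of endothelial-gated cells, Ackr3 in 72.6% and 30.3%, Car8 in 14.9% and 16.4%, and Cmah in 33.9% of members and 32.8% of macrophage-gated cells.

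The 15 lowest genes included ligands and adhesion proteins of the remaining fibroblasts. Cxcl14 stood at 16.6 CPM in members and 721 CPM in the others, 43.4-fold lower (35.6 to 53.4). Ptn (pleiotrophin, a heparin-binding growth factor) was at 34.6 and 482 CPM and Ifitm1, an interferon-induced membrane protein, at 21.5 and 484 CPM. Dlk1, a Notch-related protein of preadipocytes, stood at 4.53 and 104 CPM. Tenm4, an adhesion protein known from synapses, stood at 4.36 and 87.9 CPM, 20.1-fold lower (13.6 to 31.1). Mylk, the kinase that activates myosin light chain, stood at 9.90 and 199 CPM, and Ppp1r14a, an inhibitor of myosin phosphatase, at 6.04 and 80.3 CPM. Lamc3, a laminin chain, and Egflam, a matrix protein, were 15.8-fold and 12.0-fold lower, and the guidance receptor Epha4 stood at 6.04 and 90.6 CPM. St6galnac2, Adap2, Tmem176a and Sept4 were lower too, with the smallest fold of 11.9 in Sept4.

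**Figure D4:**
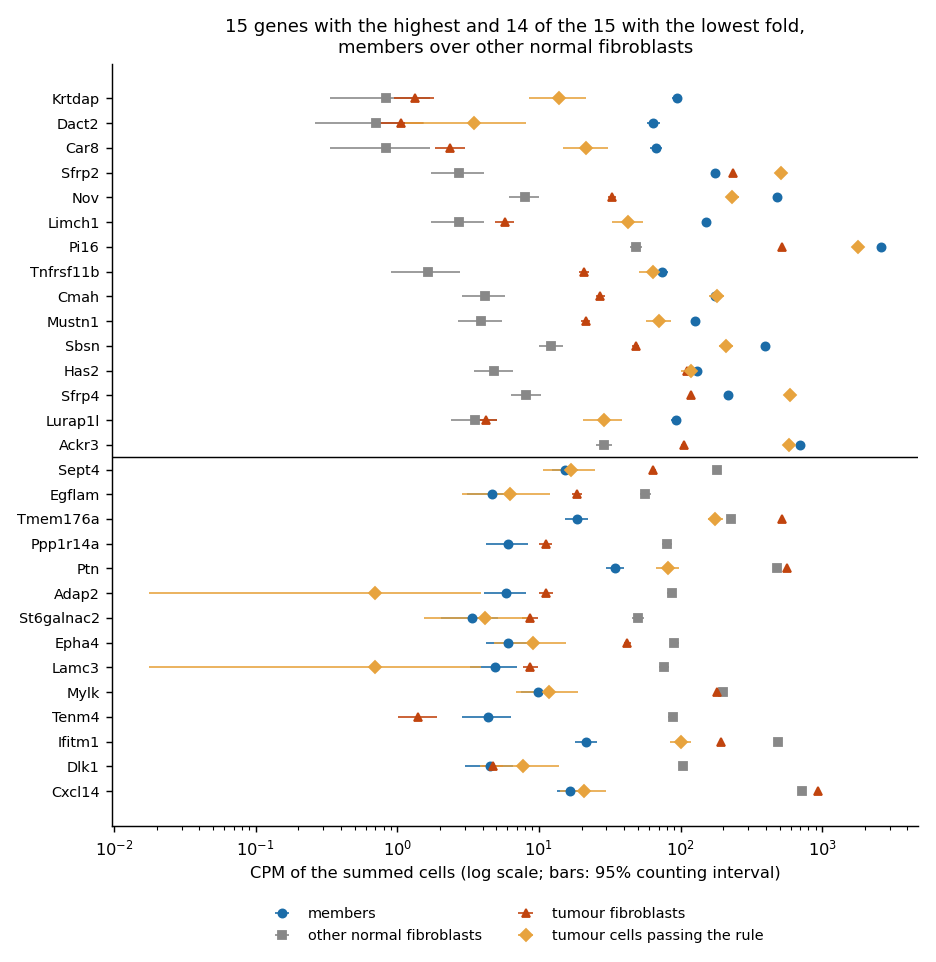
CPM (log axis) of the 15 highest and 14 of the 15 lowest genes by fold over other normal fibroblasts, in 4 groups, with 95% counting intervals. A group with 0 UMIs has no point. Above the line members lie right of the other normal fibroblasts for all 15 genes and below it left for all 14, and the tumour groups lie between or beyond them depending on the gene.

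The genes of universal or adventitial fibroblasts, a list that partly overlaps the known markers of such cells, were mostly higher in members. Of 27 measured members of the list, 21 passed the limit upward and 1 downward. Their median log2 fold was 2.13, and that of 6872 genes was -0.16. Earlier results of these data were known when the list was chosen. The number measured in a list counts genes from 20 CPM in either sum, whereas a call needs 50 CPM, which 24 of these 27 reached. The shares called among all genes at 50 CPM, 6.62% higher and 8.07% lower, are the background for each list, and a count near them is no result about the list. Anxa3 stood at 1174 CPM in members and 54.3 CPM in the others, Ly6c1, a small surface protein, at 637 and 40.2 CPM, and Smpd3, a sphingomyelinase, at 520 and 26.5 CPM. Tmem100 stood at 384 and 17.7 CPM and the transcription factor Creb5 at 429 and 48.0 CPM. Ly6a (Sca-1) was 3.78-fold higher (3.65 to 3.92) and Cd34 2.47-fold (2.36 to 2.58). Dpt (dermatopontin, 2139 and 1226 CPM) and Clec3b (2488 and 1343 CPM) stayed under 2-fold, Clec3b not with scaling by the median ratio, and both were abundant in all normal fibroblasts. Gpx3, a secreted glutathione peroxidase, was 3.32-fold lower, at 409 and 1355 CPM. The scavenger receptor Ackr2 (20.8 and 0.118 CPM) and the ligand Bmp7 (49.2 and 0.711 CPM) were below the level limit.

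The matrix genes differed in both directions. Of 21 elastic fibre and microfibril genes, 5 were higher and 2 lower. Fbn1 (fibrillin-1) stood at 3153 CPM in members and 626 CPM in the others, Mfap5 at 2758 and 499 CPM, Efemp1 at 1678 and 205 CPM and Emilin2 at 423 and 66.1 CPM. Emilin1 (51.5 and 211 CPM) and Fbn2 (48.7 and 151 CPM) were lower, so that relatives within the fibrillin and emilin families stood on opposite sides. Elastin itself was at 332 and 238 CPM. Of 16 basement membrane genes none was higher and 7 were lower, namely Col4a1 (1327 and 4196 CPM), Col4a2 (536 and 1899 CPM), Col4a3, Col4a4, Col15a1 (293 and 1387 CPM), Nid2 and Hspg2 (perlecan, 429 and 1215 CPM). Nid1 (2822 and 1419 CPM), at 1.99-fold, was just under the limit, and past it with scaling by the median ratio. Interstitial collagens differed little, with 2 of 13 higher (Col8a1, 7.77-fold, and Col14a1, 1556 and 453 CPM) and Col5a3 lower (503 and 1168 CPM). Their median log2 fold of -0.15 became 0.01 with scaling by the median ratio.

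Among small proteoglycans and matricellular genes 6 of 21 were higher and 6 lower. Fn1 stood at 2844 CPM in members and 309 CPM in the others, 9.20-fold higher (8.83 to 9.59), and was found in 91.2% and 25.7% of thinned cells. Postn (periostin) was 5.54-fold and Aspn (asporin) 4.62-fold higher. The calcium-binding matrix proteins Sparcl1 (278 and 1542 CPM) and Smoc2 (511 and 2151 CPM) were lower, as were Bgn (biglycan, 488 and 1521 CPM) and Prelp (176 and 673 CPM). Of 5 hyaluronan genes 4 were higher. Ugdh, which makes the sugar precursor of hyaluronan, stood at 1276 and 118 CPM, 10.8-fold higher (10.1 to 11.6), and Tnfaip6, which crosslinks hyaluronan, at 347 and 105 CPM. Has1 stood at 166 and 62.7 CPM, but in cells of female mice at 99.3 and 101 CPM. Cd44, a hyaluronan receptor, was at 33.9 and 36.6 CPM. Of 25 matrix proteases and inhibitors 3 were higher and 7 lower. Pcolce2, an enhancer of procollagen processing, was at 947 and 119 CPM while its relative Pcolce was at 398 and 1054 CPM. Timp2 was 2.95-fold higher, and Serpine2 (102 and 834 CPM) and Mmp3 (11.9 and 63.9 CPM) were lower.

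Secreted signals and their receptors differed in both directions. Of 24 axon guidance genes outside the rule, 14 of them at 50 CPM, 3 were higher, namely the ligands Sema3d (96.0 and 5.09 CPM), Ntn4 (122 and 10.2 CPM) and Efna5 (72.2 and 6.75 CPM). The 5 lower genes were Slit2 and the receptors Epha4, Robo2 (6.54 and 72.5 CPM), Nrp1 (107 and 311 CPM) and Plxnd1. Sema3e, below the level limit, was at 40.4 and 0.948 CPM. Of 22 growth factor and IGF genes, 14 of them at 50 CPM, 5 were higher and 6 lower. Igfbp5 stood at 1320 and 89.8 CPM, Igfbp6 at 2691 and 615 CPM and Fgf18 at 68.5 and 9.60 CPM. Mdk (midkine, 14.9 and 148 CPM) was lower together with its relative Ptn, as were Igfbp7 (917 and 2833 CPM) and Igf1 (141 and 318 CPM). Of 13 Wnt genes, 8 of them at 50 CPM, 3 were higher. Rspo3, an amplifier of Wnt signals, was 2.95-fold lower, and Axin2, a target of the pathway, was at 64.4 and 22.7 CPM. Of 25 BMP and TGF-beta genes, 16 of them at 50 CPM, 4 were higher and 2 lower, the latter being Bmp4 (44.8 and 164 CPM) and Gdf10. Among 17 growth factor and cytokine receptors, 13 of them at 50 CPM, Tek (132 and 26.1 CPM), Ddr2 and Il6ra were higher. Il1r1, Osmr, Pdgfrb and Ifngr1 were lower, Ifngr1 not with scaling by the median ratio.

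Of 16 chemokines and cytokines, 10 of them at 50 CPM, Il33, an alarmin of the IL-1 family, was higher (284 and 48.2 CPM). Cxcl12 (104 and 327 CPM), Cxcl14 and Cxcl16 were lower. Cxcl13 (2.52 and 24.6 CPM) was below the level limit. Of 10 complement and acute phase genes 2 were higher and 2 lower, and the higher ones were Cd55 and Ptx3 (88.6 and 33.4 CPM). C4b (25.5 and 106 CPM) and Hp (17.3 and 59.8 CPM) were lower in the sums, although after thinning C4b was in 5.47% of members and 7.74% of the others and Hp in 3.06% and 2.71%. Of 9 prostaglandin genes the cyclooxygenases Ptgs1 (186 and 20.9 CPM) and Ptgs2 (307 and 50.5 CPM) were higher. Hpgd, the enzyme that inactivates prostaglandins (26.7 and 133 CPM), the prostacyclin receptor Ptgir and the synthase Ptges were lower, Ptges not with scaling by the median ratio.

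Of 17 adipocyte progenitor and lipid genes 8 were lower and 1 higher, and the median log2 fold was -1.02. G0s2 stood at 150 and 933 CPM, Lpl (lipoprotein lipase) at 1010 and 3150 CPM, Apoe at 378 and 1680 CPM and the lipid transporter Abca8a at 492 and 1597 CPM. Klf4, a transcription factor, was the higher one (1898 and 659 CPM). Fabp4, whose promoter drives the Cre, was at 22.2 and 108 CPM in the sums, but in 7.22% of members and 6.83% of the others after thinning, and in 98.5% of endothelial-gated cells. Of 9 stellate cell genes 5 were lower and none higher, and the median log2 fold was -1.53. They were Vtn (vitronectin, 15.3 and 121 CPM), Sparcl1, the intermediate filament gene Des (13.4 and 73.1 CPM), Cygb (cytoglobin, 185 and 758 CPM) and Pdgfrb (2.88-fold). Vim was at 2492 and 1541 CPM. Among 10 retinoid genes, 6 of them at 50 CPM, Aldh1a3 (54.7 and 5.21 CPM) was higher and none was lower. Of 16 contractile genes 4 were lower (Myl9, Actn1, Myh9 and Des) and 2 higher (Myh10 and Zyx).

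Of 39 fibroblast and developmental transcription factors, 28 of them at 50 CPM, 7 were higher and 4 lower. Creb5, Osr1 (166 and 42.9 CPM), Ebf2, Klf2, Klf4, Zeb1 and Wt1 were higher. Foxs1 (6.38 and 59.2 CPM), Snai2 (12.3 and 52.1 CPM), Nr2f2 and Peg3 were lower, Peg3 not with scaling by the median ratio. Of 24 immediate early and dissociation genes 5 were higher and none lower, with Hspb1, a small heat shock protein, at 260 and 36.4 CPM and Atf3, a stress-induced transcription factor, at 759 and 244 CPM. Fos stood at 3854 and 2251 CPM and Jun at 2274 and 2837 CPM. The part of this list in the results was not tested. Of 19 antioxidant and detoxification genes 6 were lower, among them Cyp1b1 (23.2 and 164 CPM) and Gsta3 (35.1 and 118 CPM), and Gstm1 was higher (1230 and 515 CPM). Of 16 interferon and antigen presentation genes, 10 of them at 50 CPM, 2 were higher (Ifi27l2a and Ifit1), of 12 imprinted genes 3 were lower (Dlk1, Mest and Peg3, but only Dlk1 with scaling by the median ratio), and of 3 proprotein convertases Pcsk5 was higher (163 and 42.4 CPM). None of 5 members of the dipeptidyl peptidase family outside the rule passed the limit, but only 1 of the 5 reached 50 CPM. Of the cell cycle genes only Pcna was measured, at 15.3 and 23.8 CPM.

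**Figure D5:**
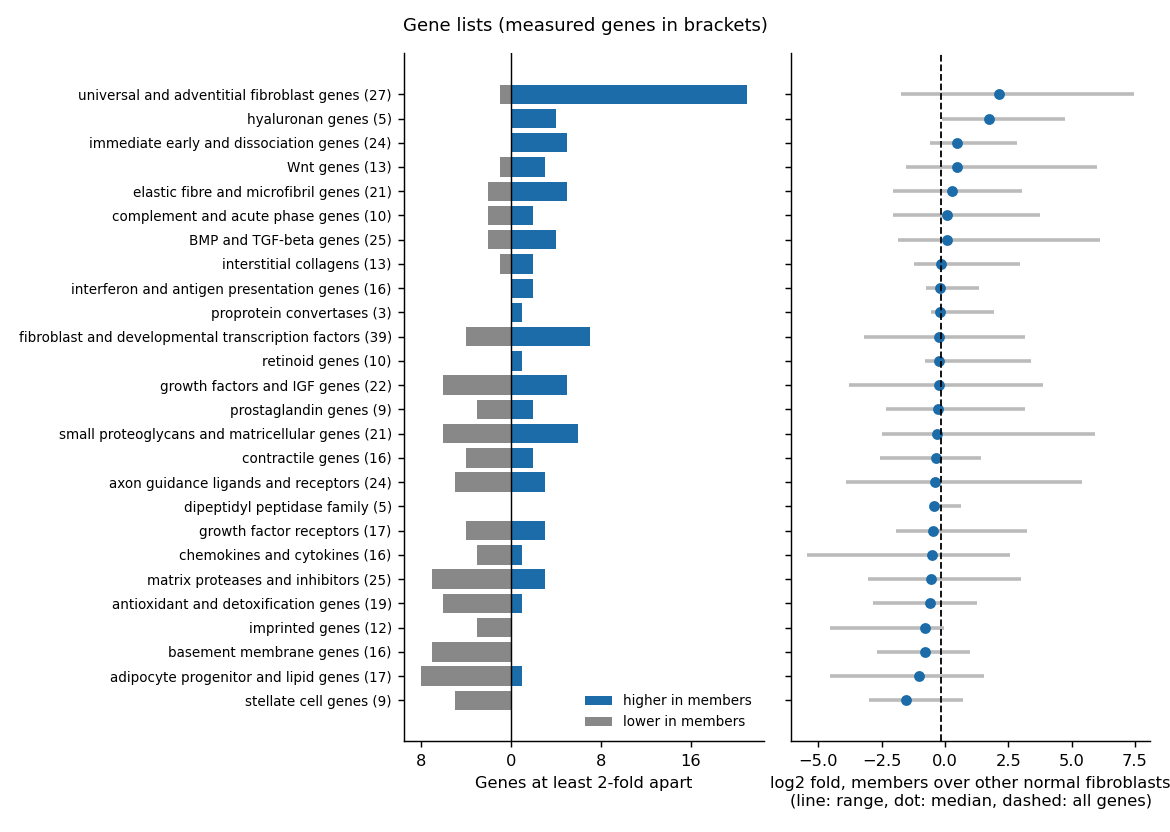
Left, number of genes of each list at least 2-fold higher (right of 0) or lower (left of 0) in members than in other normal fibroblasts. Right, range and median of their log2 folds beside the median of all genes (dashed). Of the universal and adventitial genes 21 of 27 are higher, and of the stellate cell genes 5 of 9 are lower.

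The other normal fibroblasts were also split by Inmt. Against the 63 Inmt-high cells (at least 5 per 10000 UMIs), 222 of 3639 genes (6.1%) were higher and 251 (6.9%) lower in members, or 267 and 217 when scaled by the median ratio. Pi16 stood at 192 CPM in these cells, so that members were 13.5-fold higher (11.1 to 16.7), and Cd55 at 88.0 CPM. The 5 highest genes were Nov, Krtdap, Cmah, Sfrp2 and Edn1 (endothelin 1), which rested on 5, 1, 2, 2 and 2 UMIs in the Inmt-high sum. The 5 lowest were Cntfr, a receptor chain for ciliary neurotrophic factor (6 UMIs in members, 61.6-fold lower, 25.3 to 181), Dlk1 (4.53 and 236 CPM), Cxcl14, Ptn and Ifitm1. Against the 971 Inmt-low cells, 242 of 3677 genes (6.58%) were higher and 301 (8.19%) lower. Scaled by the median ratio these were 323 and 256. Pi16 stood at 39.8 CPM in the Inmt-low cells, 65.2-fold below members (58.3 to 73.1). The 5 highest genes were Krtdap, Dact2, Car8, Sfrp2 and Pi16, and Cxcl14, Ifitm1, Dlk1 and Tenm4 were among the 5 lowest. Whether Pi16 differed between Inmt-high and Inmt-low cells was not tested.

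Transcripts of Xist or of genes on the Y chromosome showed that mice of both sexes had been pooled. Members made up 25.6% of 492 fibroblasts with female transcripts (21.8 to 29.7%) and 38.2% of 764 with male transcripts (34.8 to 41.8%). Sex, mouse and cell recovery cannot be told apart in this difference. The 15 highest and the 15 lowest genes kept their direction in the cells of each sex. They were chosen by their folds in these same cells, so this was nearly fixed by the choice and tests nothing. Pi16 stood at 2416 CPM in members and 58.3 CPM in other fibroblasts of females, and at 2689 and 36.9 CPM in males. Krtdap was at 31.4 CPM in female and 119 CPM in male members. Igfbp5 was 8.44-fold higher in members among female and 21.1-fold among male cells, and Fn1 6.06-fold and 12.7-fold. The differences between the sexes were not tested.

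The same rule was applied to the tumour library, to see whether cells like the members were present there. Of 2258 tumour fibroblasts 118 passed, or 5.23% (4.34 to 6.23%, Clopper-Pearson), against 30.9% of the normal fibroblasts. They lay nearer to the threshold, with a median of 7.29 per 10000 UMIs and a highest value of 21.2, and 20 of the 118 held all 4 rule genes. Pi16 was found in more tumour fibroblasts than any rule gene. Pi16 stood at 524 CPM in all tumour fibroblasts and was in 49.1% of the thinned cells, while Sema3c, Dpp4, Efhd1 and Pcsk6 were in 3.84%, 7.19%, 0.863% and 7.29%. In the tumour cells passing the rule Pi16 stood at 1799 CPM and was in 76.7% of the thinned cells, against 79.4% of members. Cd55 stood at 65.1 CPM in all tumour fibroblasts, near the 62.1 CPM of the other normal fibroblasts, and at 357 CPM in the tumour cells passing the rule.

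Against all tumour fibroblasts, 379 of 3512 genes (10.8%) were higher and 413 (11.8%) lower in members, or 288 and 462 when scaled by the median ratio. Of 28 measured universal and adventitial genes 18 were higher and 3 lower. Krtdap (1.34 CPM in tumour fibroblasts), Dact2 (1.06), Car8 (2.36), Limch1 (5.76) and Chst1, a sulfotransferase (3.26), had the highest folds, from 24.0 to 70.6. The lowest were Spp1 (osteopontin), Tnc (tenascin C), Ltbp2, Rgs16 and Nfasc. Spp1 had 0 UMIs in members and 1028 CPM in tumour fibroblasts, at least 2041-fold lower with a floor of 3 UMIs over the group. Tnc was at 0.839 and 694 CPM. Of 20 chemokines and cytokines 11 were lower in members, with Il6 at 48.7 and 1246 CPM and Cxcl1 at 384 and 2366 CPM. Of 25 immediate early and dissociation genes 13 were lower and 1 higher, and the enzymes of digestion differed between the libraries. Not every member transcript was rare in the tumour. Sfrp2 stood at 237 CPM in tumour fibroblasts and 175 CPM in members, and Has2 at 111 and 130 CPM.

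Members were last set against the 118 tumour cells that passed the same rule, so that both sides carried the rule genes. Of 3417 genes 153 (4.48%) were higher and 308 (9.01%) lower in members, or 110.0 and 349 when scaled by the median ratio. Of 28 universal and adventitial genes 4 were higher and 3 lower. The list's median log2 fold was 0.33, and that of all genes 0.13. The 4 were Anxa3 (1174 CPM in members and 424 CPM in the tumour cells), Limch1, Opcml and Igfbp6, and the 3 lower were Ly6c1 (637 and 1568 CPM), Gpx3 (409 and 1283 CPM) and Has1 (166 and 944 CPM). Dact2 (64.4 and 3.49 CPM) and Igfbp5 (1320 and 102 CPM) had the highest folds, 18.4 and 12.9, followed by Fam71a, Krtdap and Adamtsl3. Chl1, a neural adhesion protein, stood at 0.671 CPM in members and 175 CPM in the tumour cells, 261-fold lower. Wisp2 (0.839 and 58.7 CPM), Prg4 (lubricin, 2.69 and 180 CPM), Ctla2a and the protease Mmp3 (11.9 and 564 CPM) followed. Acute phase and inflammatory transcripts were also lower in members, with C4b at 25.5 and 865 CPM, Ptx3 at 88.6 and 1337 CPM and Cxcl1 at 384 and 3172 CPM. Cxcl14 was low on both sides (16.6 and 21.0 CPM), while it stood at 928 CPM in all tumour fibroblasts. Sfrp2 (514 CPM) and Sfrp4 (591 CPM) were higher in the tumour cells passing the rule than in members. The tumour cells differ from members in library, sort, digestion, age of the mice and distance from the threshold. None of these can be told apart from the tumour.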

How the data were processed

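The data are 2 droplet libraries of mouse pancreas cells. Per the submitters' processing notes, Cell Ranger 3.1.0 and the mm10 build were used. The deposited values are raw UMI counts of 27998 genes per barcode, not normalized by the authors, with depths of 36675424 normal and 33285044 tumour UMIs. Neither aligner settings nor read filters are given in the sources used here. The rule was applied to these counts. Doublets were not removed, as the rule does not ask for it, and Scrublet (scanpy 1.11.5) was an alternative. Endothelial-gated and macrophage-gated cells, defined by their markers, served as background.

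Counts were summed over the 5958916 UMIs of the members and the 8439792 of the other normal fibroblasts and scaled to CPM. Folds are ratios of CPM with exact intervals of 2 Poisson counts (scipy 1.17.1, Python 3.11.15). The calculation was tested on simulated data. A 0 was set to a floor of 3 counts. List medians use genes reaching 20 CPM in one of the sums. Of 723 list genes 716 were found, and all 6 markers matched a promoter. Coordinates of genes come from GENCODE on GRCm38.

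Named were the label markers, the gate genes, the 15 highest and 15 lowest genes (the 5 highest and lowest in other comparisons) among those called, in at least 10% of the cells of the higher group, without mitochondrial, ribosomal, sex-linked, unnamed and rule genes and markers of other classes, and the 2 highest and lowest measured genes of each list. Further list members, and the values by score, were named after their values were seen. Of the genes that this naming rule selects, 1 is not reported here. The members and lists were chosen with earlier results of these data known. Alternatives were other thresholds, gates, depths, scalings, cell weights, sexes and subsets.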

Additional observations from a re-analysis of the deposited data

How the results depend on the processing

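Counting error is the limit of every interval here, and 1 library per group gives no measure of the spread between mice. No paired analysis was possible because each group has 1 library and no replicate is shared. The member share of 30.9% was 39.7% (594 cells) with a threshold of 3 per 10000 UMIs and 22.6% (338 cells) with 10. Counts of genes 2-fold apart depended on the level limit by construction, since fewer or more genes enter. At a limit of 20 CPM, 363 genes were higher and 493 lower against other normal fibroblasts. Against Inmt-high cells 381 were higher and 553 lower, and against Inmt-low cells 363 and 496. Against tumour fibroblasts 667 were higher and 664 lower, and against tumour cells passing the rule 351 and 467. At 100 CPM the higher and lower counts were 160 and 174, 134 and 145, 162 and 171, 216 and 275, and 75 and 209, in the same order of comparisons. In cells of female mice Has1 reversed against other normal fibroblasts (log2 fold -0.031), as did Krtdap against Inmt-high cells (log2 fold -0.15, on few UMIs), and the cause was not tested. The alternatives against other normal fibroblasts were followed for 138 genes, 89 of them called. With no raw UMI of Ptprc, Pecam1 and Cdh5 allowed, only 135 of the 138 had a fold. Of the 89 called genes, 9 lost the call in female and 2 in male cells, 2 with a threshold of 10 and 3 with 3. Another 4 did so with members chosen on Efhd1 and Pcsk6 alone, 25 at 100 CPM, and none without Scrublet doublets (5 members) or with another scaling. Outside these 138, Ptges, Ifngr1, Mest and Peg3, named as lower, lost their call with scaling by the median ratio. Of the 138 folds, 39 moved by more than 1.5 times with a threshold of 10, 31 with 3, 38 with the rule after thinning, 38 with members chosen on Efhd1 and Pcsk6, 13 with members chosen on Sema3c and Dpp4, 30 in female and 14 in male cells. The removal of cells with markers of other classes was chosen after seeing the data, and it ended none of the 89 calls and moved 6 folds so far.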
